A study of Mus musculus with 6 samples.

Results

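The genes described here are 35 enzymes and regulators of cholesterol and fatty acid synthesis, followed in activated CD8 T cells from Aged and Young mice. They were taken from a list of names, with the condition that a gene average 1 CPM or more across the 6 libraries, and 35 of 35 met it. CPM is a gene's reads per 1000000 reads of its library. They stand among 10511 genes that met the same condition. The list holds 18 enzymes of the sterol branch, 5 genes of sterol sensing and transport, and 12 enzymes of the fatty acid branch.

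CD8 T cells are lymphocytes that recognise and kill cells carrying foreign antigens. Aged and Young stand for female wild-type C57BL/6 mice of around 65 weeks and of 6 weeks. In both groups the spleen's CD8 T cells were enriched with a kit, activated for 2 days on coated antibodies to TCR-β (3 µg/ml) and CD28 (1 µg/ml), and grown for 5 further days, with interleukin 2, a T cell growth factor, at 10 ng/ml throughout. After these 7 days 500 ng of RNA per library went into 3' end sequencing, which reads the tail end of each polyadenylated transcript, so that a gene's CPM does not grow with its length. Each group had 3 libraries, named by the labels as biological replicates with no word on which animal gave which, so the p-values measure the spread between libraries. The question was how the activated cells of the 2 ages differ in their transcripts. In a bulk sample, fewer cells of a type and less RNA per cell cannot be told apart.

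Cells make cholesterol from acetyl-CoA by way of mevalonate, isoprenoid units, squalene and lanosterol. They make fatty acids by carboxylating acetyl-CoA to malonyl-CoA and joining these units into palmitate, which elongases lengthen and desaturases give double bonds. Both routes are switched on by the SREBP transcription factors, which SCAP carries from the endoplasmic reticulum to the Golgi for cleavage, while INSIG proteins hold SCAP back when sterols are plentiful. T cells that leave rest and divide are known to raise both routes, since each daughter cell needs new membrane.

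Of the 35 genes, 9 rose in Aged cells (25.7%), 1 fell (2.86%) and 25 did not pass the test, which was limma on log2(CPM + 1) with an adjusted p under 0.05 over all tested genes. Over all 10511 tested genes, limma called 16.2% higher and 12.5% lower. The share of members that rose lay above this background and the share that fell below it, with no test of that difference. The 35 genes were not matched to the background for level, and were chosen with earlier results of these data known. All but Fads1, Dhcr7, Acss2 and Me1 averaged above 22.4 CPM, the median over all tested genes. The genes that rose were Hmgcs1, Idi1, Cyp51 and Hsd17b7 of the sterol branch, the regulator Insig1, and Acly, Acaca, Fasn and Fads2 of the fatty acid branch. The gene that fell was Acss2. The median log2 fold change of the 35 genes was 0.12, against 0.03 over all tested genes, and the changes that passed lay between 1.22-fold and 1.58-fold higher, except for the 2.22-fold lower Acss2.

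This balance depended on the scaling of the libraries. With TMM or RLE scaling 8 members were called higher and 4 lower, since Acly lost its call and Mvk, Mvd and Scd2 were called lower, and edgeR on the recovered reads called the same numbers. Over all tested genes TMM scaling called 13.6% higher and 14.8% lower, RLE scaling 13.8% and 14.6%, and edgeR 13.7% and 14.8%. These scalings moved the median over all tested genes, 0.03 on the log2 scale, to -0.02 and -0.01. DESeq2 called 7 higher, without Insig1 and Acly, and 1 lower, where its background was 9.06% higher and 9.68% lower.

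**Figure D1:**
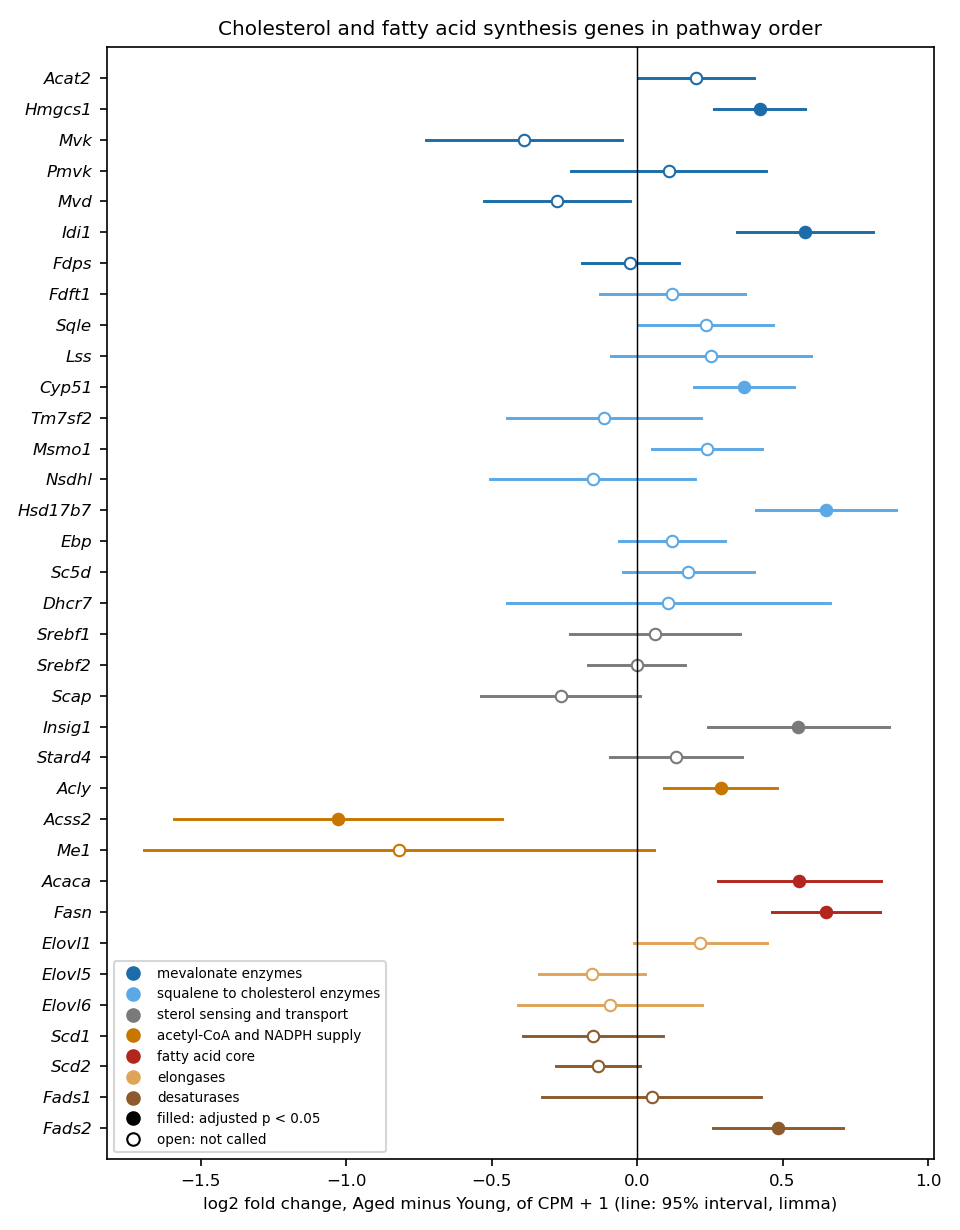
Log2 fold change of each of the 35 genes, Aged minus Young on log2(CPM + 1), with its 95% limma interval, in pathway order, with filled points for called genes and open points for the others. The called genes range from Acly at 0.29 to Hsd17b7 and Fasn at 0.65 on the higher side, and Acss2 stands alone on the lower side at -1.03.

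Promoters of some of the called genes are shown before their values, since SREBP factors act at such regions together with the factors NF-Y and Sp1. RefSeq promoters (build GRCm38.p6) were found for 28 of the 35 genes, and the 250 bases before the RefSeq start were searched on both strands for 4 motifs. These were the sterol regulatory element of the SREBP factors (TCACNCCAC), the CCAAT box of NF-Y, the GC box of Sp1 (GGGCGG) and the palindromic E-box (CACGTG). Printed 5' to 3' on the gene's own strand, with CCAAT boxes, sterol regulatory elements and palindromic E-boxes of either orientation in capitals, the windows were those of Hmgcs1 (chr13:119690101-119690350, plus strand), Idi1 (chr13:8885356-8885605, plus strand), Cyp51 (chr5:4104698-4104947, minus strand), Insig1 (chr5:28071162-28071411, plus strand), Fasn (chr11:120824548-120824797, minus strand) and Acss2 (chr2:155517793-155518042, plus strand). Hmgcs1, Idi1 and Cyp51 are sterol genes that rose, Insig1 the regulator that rose, Fasn the fatty acid gene with the smallest p, and Acss2 the gene that fell.
Hmgcs1: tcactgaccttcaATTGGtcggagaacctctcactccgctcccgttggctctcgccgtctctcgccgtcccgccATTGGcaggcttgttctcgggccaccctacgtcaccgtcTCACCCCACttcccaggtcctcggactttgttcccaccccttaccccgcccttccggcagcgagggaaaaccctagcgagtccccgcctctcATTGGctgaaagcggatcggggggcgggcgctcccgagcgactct
Idi1: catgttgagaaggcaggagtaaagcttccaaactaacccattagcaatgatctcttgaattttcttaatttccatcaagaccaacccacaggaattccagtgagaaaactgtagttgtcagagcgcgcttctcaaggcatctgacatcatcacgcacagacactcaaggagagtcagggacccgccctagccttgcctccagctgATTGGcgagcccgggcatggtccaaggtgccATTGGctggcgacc
Cyp51: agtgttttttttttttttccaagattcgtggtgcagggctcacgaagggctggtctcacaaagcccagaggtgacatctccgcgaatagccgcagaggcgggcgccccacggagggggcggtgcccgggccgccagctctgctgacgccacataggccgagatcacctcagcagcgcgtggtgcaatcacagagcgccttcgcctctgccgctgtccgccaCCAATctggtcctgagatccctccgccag
Insig1: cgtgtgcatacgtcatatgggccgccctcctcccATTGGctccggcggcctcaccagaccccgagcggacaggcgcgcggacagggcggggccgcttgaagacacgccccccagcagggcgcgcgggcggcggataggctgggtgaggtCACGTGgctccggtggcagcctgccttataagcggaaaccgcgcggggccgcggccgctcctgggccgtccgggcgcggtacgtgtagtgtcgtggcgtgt
Fasn: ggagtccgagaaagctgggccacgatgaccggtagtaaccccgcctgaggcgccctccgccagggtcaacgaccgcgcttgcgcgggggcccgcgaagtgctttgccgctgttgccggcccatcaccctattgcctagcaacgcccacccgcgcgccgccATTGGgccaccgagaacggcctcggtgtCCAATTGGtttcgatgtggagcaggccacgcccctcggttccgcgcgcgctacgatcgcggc
Acss2: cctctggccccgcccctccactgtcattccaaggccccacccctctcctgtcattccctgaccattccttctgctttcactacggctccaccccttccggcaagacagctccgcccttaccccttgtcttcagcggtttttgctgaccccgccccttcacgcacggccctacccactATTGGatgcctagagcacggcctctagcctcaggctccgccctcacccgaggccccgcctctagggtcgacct

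All 6 printed windows held a CCAAT box, on one strand or the other, and Hmgcs1 and Fasn held 3 matches each. The windows of the called genes Acly, Acaca and Fads2, which are not printed, held no CCAAT box. The gene positions given below come from GENCODE, which places some starts elsewhere than RefSeq. By the GENCODE bounds the windows of Idi1, Cyp51, Insig1 and Acss2 reach into the gene. The CCAAT boxes of Idi1, Cyp51 and Acss2 lie inside those bounds. In Fasn, matches on opposite strands share bases and appear as 1 run of capitals. The Hmgcs1 window was the only one of the 28 with the letters of the sterol regulatory element, 129 bases before the start, where 1.22% of the tested genes with a promoter entry had a match. Insig1 held the palindromic E-box. No match says only that these letters are not in this window.

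A CCAAT box was present in 22 of the 28 member promoters (78.6%), against 41.1% of the 8353 tested genes with a promoter entry. A GC box was present in 23 of 28 (82.1%, against 65.0%) and a palindromic E-box in 6 of 28 (21.4%, against 10.2%). Among the members the CCAAT box was present in 7 of 10 called and 15 of 18 uncalled genes. A match describes the letters and is not evidence of binding.

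Markers of proliferation moved with the group. All 13 genes of that list rose, with log2 fold changes of 0.57 to 1.32 and a summed level of 3967 to 4053 CPM in Aged and 1984 to 2567 CPM in Young libraries, and Mki67 was 468 ± 12.8 CPM in Aged and 235 ± 33.3 CPM in Young cells (SD, n = 3 per group). The part of proliferation in the differences described here was not tested. The 5 T cell markers of the CD8 list, Cd8a, Cd8b1, Cd3d, Cd3e and Cd3g, were present. They summed to 1452 to 1628 CPM in Aged and 1891 to 1976 CPM in Young libraries. Cd8b1 and the Cd3 genes were called lower, 4 in all, and Cd8a did not pass (log2 fold change 0.15). Of the other cell type markers, Cd79b (B cells), Xcr1 (dendritic cells) and Hbb-bt (erythroid cells) fell and Xbp1 (plasma cells) rose. The B cell list summed to 0 to 1.53 CPM in Aged and 2.51 to 9.99 CPM in Young libraries, with Cd79a and Ms4a1 at 0 in all 6. The dendritic list summed to 6.12 to 12.3 CPM in Aged and 23.1 to 36.5 CPM in Young libraries, with Flt3, Siglech and Clec9a at 0, and the erythroid list to 1.15 to 4.24 CPM in Aged and 10.0 to 22.3 CPM in Young libraries, with Hbb-bs at 0. The plasma cell list, nearly all Xbp1, summed to 97.4 to 108 CPM in Aged and 68.2 to 87.8 CPM in Young libraries. Its gene Jchain went the other way, at 0 in the Aged and 0.359 to 3.07 CPM in the Young libraries, and Sdc1 was at most 0.767 CPM. Both averaged too little to be tested. The macrophage list summed to 1.54 to 7.53 CPM in Aged and 0 to 0.718 CPM in Young libraries, with Adgre1, Lyz2 and C1qa at 0. The highest of these sums came from Csf1r in Aged replicate 3, at 7.06 CPM there and at 0 in every other library. The NK cell list, nearly all Klrb1c, summed to 11.9 to 17.9 CPM in Aged and 20.4 to 26.5 CPM in Young libraries, without overlap, and Klrb1c did not pass (log2 fold change -0.52, limma adjusted p = 0.0599). The neutrophil list, nearly all Ly6g, summed to 55.1 to 129 CPM in Aged and 82.6 to 102 CPM in Young libraries, with S100a8 and Camp at 0. The lists of CD4 T cells and platelets summed to at most 4.10 CPM in any library. The part of other cells was not tested. The libraries held 1952552 to 2608553 reads in Aged and 2300219 to 2785915 reads in Young samples, with a read for 11371 to 11874 genes.

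The mevalonate route comprised 7 genes, of which 2 rose (28.6%), 0 fell and 5 did not pass. Over all tested genes 16.2% were called higher and 12.5% lower, and the route's median log2 fold change was 0.11. Hmgcs1, the cytosolic synthase that makes HMG-CoA and the most abundant member, was 864, 754 and 961 CPM in Aged and 686, 634 and 599 CPM in Young libraries, in the order of replicates 1 to 3. All Aged values lay above all Young ones. The means were 859.7 ± 104 CPM in Aged and 639.5 ± 44.0 CPM in Young cells (SD, n = 3 per group), 1.34-fold higher, with a log2 fold change of 0.42 ± 0.08 (SE) and a limma adjusted p of 2.70e-04. The gene (ENSMUSG00000093930, chromosome 13, 119690379 to 119708260, plus strand, GRCm38) overlaps the exons of the antisense gene Gm48342, which matters if the counting ignored strand.

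Idi1 encodes the isomerase that interconverts the isoprenoid units IPP and DMAPP. Its values were 105, 107 and 142 CPM in Aged and 77.8, 74.3 and 82.2 CPM in Young libraries, with no overlap and with Aged replicate 3 well above the other Aged libraries. It rose 1.51-fold, at 118 ± 20.9 CPM in Aged and 78.1 ± 3.97 CPM in Young cells (SD, n = 3 per group; log2 fold change 0.58 ± 0.11 (SE), limma adjusted p = 6.08e-04). Its 3' end (ENSMUSG00000058258, chromosome 13, 8885501 to 8892451, plus strand) is near-identical to those of the gene models Gm13502 and Gm35570, which were not listed in these data. The value of Idi1 is uncertain to the extent that reads were divided among them.

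The other 5 genes of the route did not pass, and for such genes the log2 fold change is given with its 95% limma interval. Acat2, the thiolase that makes acetoacetyl-CoA, was 119.8, 129.6 and 108 CPM in Aged and 104, 111 and 95.3 CPM in Young libraries, and its log2 fold change was 0.20 (95% interval 0.00 to 0.40). It shares a near-identical 3' end with Acat3, which was listed at 0 in all 6 libraries. Mvk, mevalonate kinase, was 26.1, 21.5 and 20.7 CPM in Aged and 30.4, 31.9 and 27.7 CPM in Young libraries (log2 fold change -0.39, -0.72 to -0.05), and Mvd, the decarboxylase that yields IPP, was 83.0, 59.0 and 80.9 CPM in Aged and 91.3, 89.7 and 86.5 CPM in Young libraries (-0.28, -0.52 to -0.03).

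For both Mvk and Mvd every Aged value lay below every Young value. Their limma adjusted p-values were 0.0784 and 0.0924, and with TMM scaling they were called lower, at log2 fold changes of -0.44 (adjusted p = 0.0456) and -0.33 (adjusted p = 0.041). Pmvk, the kinase between them, was 29.7, 30.7 and 26.8 CPM in Aged and 32.2, 24.4 and 24.6 CPM in Young libraries, with a log2 fold change of 0.11 (-0.23 to 0.44). Fdps, which joins the units into farnesyl diphosphate, was 164, 154 and 169.9 CPM in Aged and 166, 174 and 157 CPM in Young libraries, the closest to no difference in the route at -0.02 (-0.19 to 0.14). The groups of Pmvk, Fdps and Acat2 overlapped, and the value of Fdps is uncertain because the gene model Gm43738 overlaps it on the same strand and pseudogenes share its 3' end. Gm43738 was listed at 0 in all 6 libraries, and the gene models Gm3571 and Gm5873 were not listed. Within the route HMG-CoA synthase and the isomerase rose, while the enzymes between them had estimates on either side of 0.

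From squalene to cholesterol there were 11 genes, of which 2 rose (18.2%), 0 fell and 9 did not pass, with a median log2 fold change of 0.18. The share that rose lay near the 16.2% of all tested genes called higher, where 12.5% were called lower. Cyp51, the lanosterol demethylase, was 289, 246 and 309.7 CPM in Aged and 223, 206 and 222 CPM in Young libraries. Every Aged library was above every Young one, and the means of 282 ± 32.5 CPM in Aged and 217 ± 9.45 CPM in Young cells (SD, n = 3 per group) gave a 1.30-fold higher level (log2 fold change 0.37 ± 0.08 (SE), limma adjusted p = 0.00218). The gene (ENSMUSG00000001467, chromosome 5, 4081145 to 4104746, minus strand) overlaps exons of Akap9 on the other strand, which itself was 111, 116 and 117 CPM in Aged and 143, 116 and 126 CPM in Young libraries.

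Hsd17b7, the keto reductase that completes removal of the C4 methyl groups, had the largest log2 fold change of the sterol genes. It was 70.7, 73.6 and 74.8 CPM in Aged and 46.5, 51.0 and 41.5 CPM in Young libraries, and the Aged libraries lay close together and apart from the Young ones. Its means were 73.0 ± 2.13 CPM in Aged and 46.3 ± 4.74 CPM in Young cells (SD, n = 3 per group), 1.58-fold higher (log2 fold change 0.65 ± 0.11 (SE), limma adjusted p = 2.46e-04; ENSMUSG00000026675, chromosome 1, 169949535 to 169969241, minus strand).

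The remaining enzymes of this segment were measured as follows. Msmo1, the C4 methyl oxidase, was 124, 128 and 140.3 CPM in Aged and 105, 120.3 and 107 CPM in Young libraries, without overlap, and missed the threshold (log2 fold change 0.24, 0.05 to 0.43, limma adjusted p = 0.0544). It was called higher when genes averaging under 5 CPM were left out (adjusted p = 0.048) and without Young replicate 2 (0.30, adjusted p = 0.0346). Sqle, the epoxidase that commits squalene to sterols, was 75.8, 77.1 and 95.1 CPM in Aged and 74.8, 66.0 and 68.4 CPM in Young libraries, and Sc5d, the lathosterol desaturase, was 78.4, 78.6 and 95.5 CPM in Aged and 76.1, 68.9 and 77.6 CPM in Young libraries. Their groups did not overlap either, the Sc5d values of Aged replicates 1 and 2 lying just above those of Young replicates 1 and 3, and the log2 fold changes were 0.24 (0.00 to 0.47) and 0.18 (-0.05 to 0.40).

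In the other 6 genes the groups overlapped. Fdft1, squalene synthase, was 58.9, 51.4 and 56.5 CPM in Aged and 56.1, 49.9 and 47.3 CPM in Young libraries (0.12, -0.13 to 0.37). Lss, which closes the lanosterol ring, was 25.1, 28.0 and 32.9 CPM in Aged and 26.1, 21.2 and 24.2 CPM in Young libraries (0.25, -0.09 to 0.60). The highest value of Lss was in Aged replicate 3, and Fdft1 and Lss overlap Ctsb and 4930483K19Rik on the other strand. Tm7sf2, a C14 sterol reductase, was 39.4, 27.6 and 29.2 CPM in Aged and 30.9, 34.1 and 38.4 CPM in Young libraries (-0.11, -0.45 to 0.22). Nsdhl, a dehydrogenase of C4 demethylation, was 22.5, 19.2 and 25.9 CPM in Aged and 25.2, 24.8 and 25.0 CPM in Young libraries (-0.15, -0.50 to 0.20). Both had a wider spread among the Aged libraries, and the value of Tm7sf2 is uncertain because exons of Vps51 overlap it on the same strand. Ebp, the sterol isomerase, was 130.1, 125 and 142 CPM in Aged and 126, 115 and 123 CPM in Young libraries (0.12, -0.06 to 0.30). Dhcr7, which makes cholesterol from 7-dehydrocholesterol, had the lowest level of the sterol enzymes, at 7.68 to 12.7 CPM in Aged and 6.92 to 10.9 CPM in Young libraries (0.11, -0.45 to 0.66).

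Taking the sterol enzymes as 1 group, 13 of 18 had a positive log2 fold change and the median was 0.15, while 53.2% of all tested genes had a positive one. The median of these enzymes was 0.095 with TMM scaling, 0.0996 with RLE scaling and 0.104 with edgeR. Their summed level was 2313, 2119.9 and 2524 CPM in Aged and 1988, 1906 and 1854 CPM in Young libraries, 1.21-fold higher and without overlap. Hmgcs1 carried much of this sum, and without it the sums were 1459 ± 98.9 CPM in Aged and 1276 ± 23.7 CPM in Young libraries (SD, n = 3 per group), 1.14-fold higher. Aged replicate 3 was the highest of its group in 12 of the 18 genes.

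**Figure D2:**
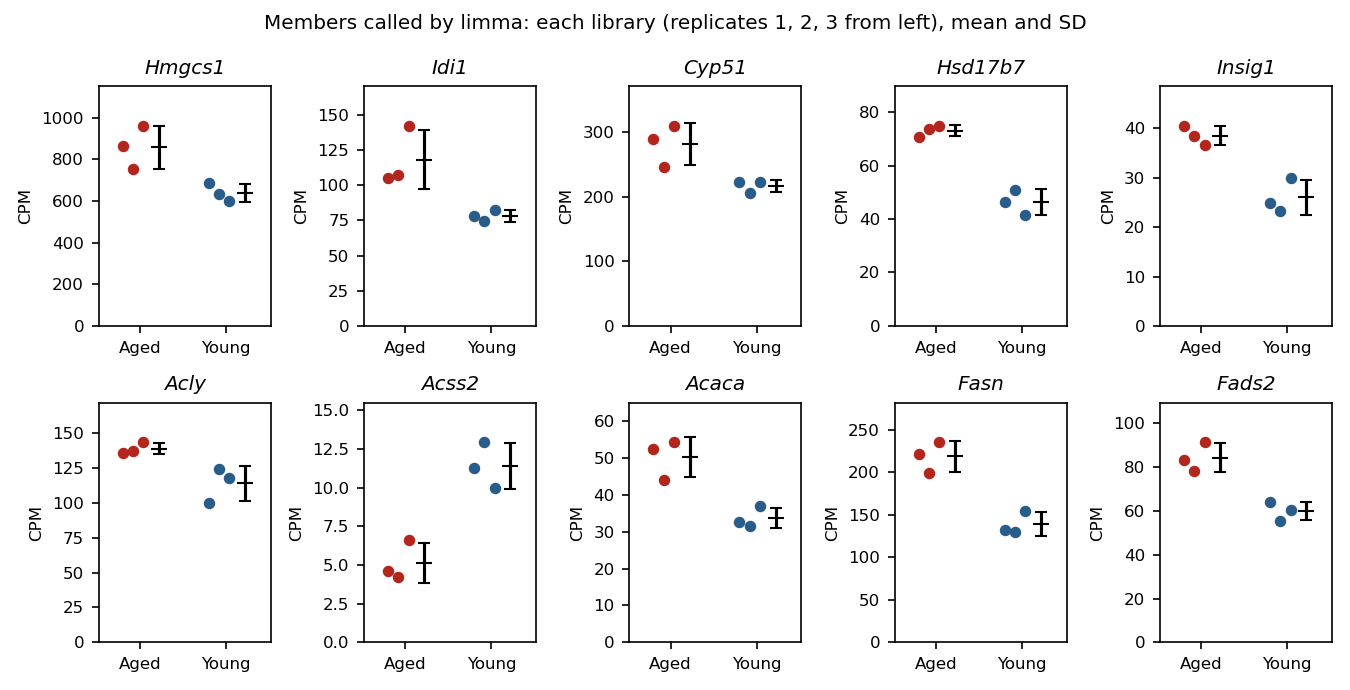
Level in CPM (linear axes) of the 10 called genes in each library, with Aged points left of Young points and the mean ± SD of each group (n = 3) beside them. In 9 panels the 3 Aged points lie above the 3 Young points, and in the Acss2 panel they lie below them.

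Among the regulators, Insig1 rose and the SREBP genes showed no difference past the threshold. Insig1, the endoplasmic reticulum protein that retains SCAP and itself a known SREBP target, was 40.5, 38.3 and 36.7 CPM in Aged and 24.8, 23.3 and 30.0 CPM in Young libraries. All Aged values were above all Young ones, and the means were 38.5 ± 1.88 CPM in Aged and 26.0 ± 3.49 CPM in Young cells (SD, n = 3 per group), 1.48-fold higher (log2 fold change 0.55 ± 0.15 (SE), limma adjusted p = 0.00791; ENSMUSG00000045294, chromosome 5, 28071363 to 28078662, plus strand). DESeq2 did not call it (0.52, adjusted p = 0.0855).

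Srebf2, which encodes the sterol-directed SREBP-2, was 232, 254 and 235 CPM in Aged and 226, 228 and 270.1 CPM in Young libraries. The groups overlapped fully, and the 95% interval of its log2 fold change was -0.17 to 0.17. Srebf1, which encodes SREBP-1 and is tied mainly to fatty acid genes, was 52.8, 42.2 and 42.4 CPM in Aged and 50.9, 42.7 and 38.0 CPM in Young libraries (0.06, -0.23 to 0.35), again overlapping. Exons of Rai1 lie on its other strand.

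Scap, the escort protein, was 37.9, 42.6 and 48.0 CPM in Aged and 46.1, 54.2 and 54.2 CPM in Young libraries, lower on average in Aged libraries but with overlap (-0.26, -0.54 to 0.01). Stard4, a cytosolic sterol carrier, was 122, 101 and 144 CPM in Aged and 109, 106 and 115 CPM in Young libraries (0.13, -0.09 to 0.36), with Aged replicate 3 the highest and Aged replicate 2 the lowest of the 6. These are transcript levels, and the cleavage that activates SREBP proteins was not measured.

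**Figure D3:**
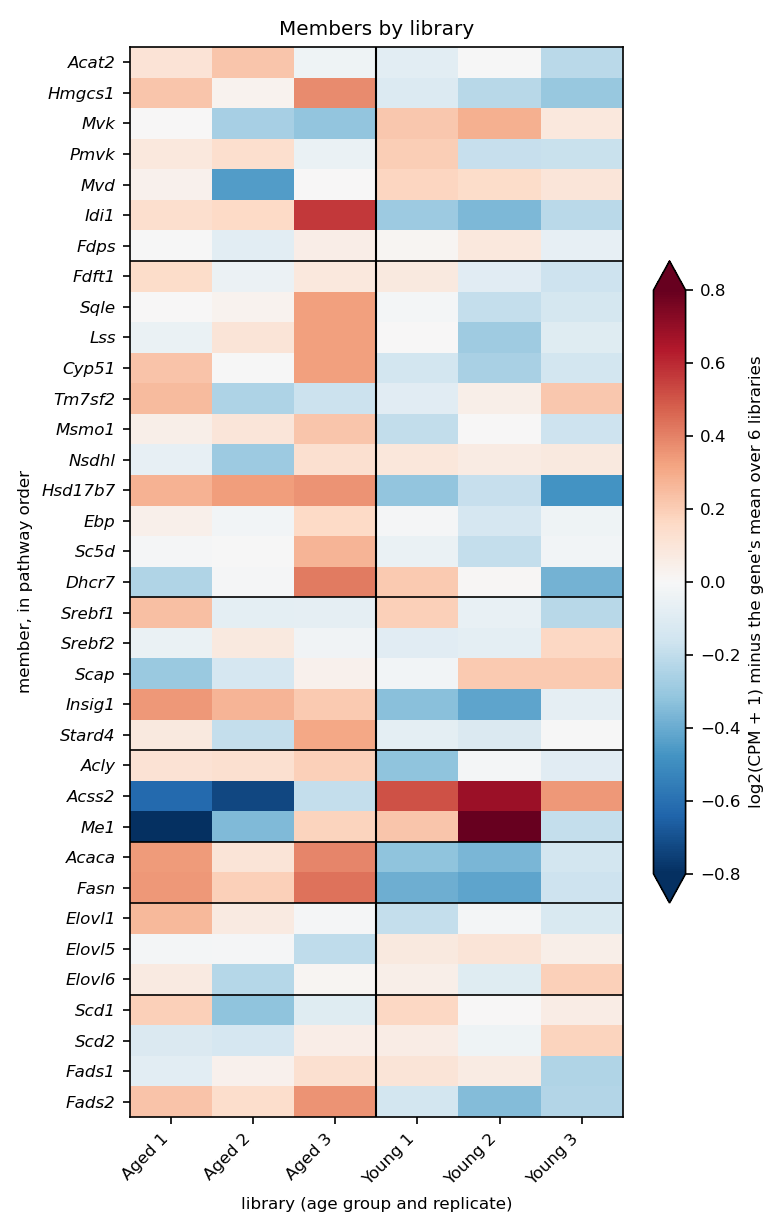
Deviation of each of the 35 genes from its mean over the 6 libraries on log2(CPM + 1), with Aged libraries left of Young libraries and genes ordered by branch. Of the 9 genes that rose 8 are above their mean in all Aged libraries, Cyp51 lying just below it in Aged replicate 2, and the column of Aged replicate 3 holds the highest Aged value in 22 of 35 genes.

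In the fatty acid branch 4 of 12 genes rose (33.3%), 1 fell (8.33%) and 7 did not pass. Over all tested genes 16.2% were called higher and 12.5% lower. Acly and Acss2, which make acetyl-CoA, were counted in this branch only, although both branches start from acetyl-CoA. The branch had a median log2 fold change of -0.02. The median was -0.074 with TMM scaling, -0.069 with RLE scaling and -0.080 with edgeR, and it was above 0 without Aged replicate 2 (0.021), without Young replicate 1 (0.0092) and with genes averaging under 5 CPM left out (0.0495). The genes that rose included successive steps of palmitate synthesis, from citrate to the finished chain. Acly, which splits citrate into cytosolic acetyl-CoA, was 136, 137 and 143 CPM in Aged and 99.99, 124 and 118 CPM in Young libraries. The groups did not overlap, the means were 139 ± 3.96 CPM in Aged and 114 ± 12.4 CPM in Young cells (SD, n = 3 per group), and the 1.22-fold higher level (log2 fold change 0.29 ± 0.09 (SE), limma adjusted p = 0.0252; ENSMUSG00000020917, chromosome 11, 100476353 to 100528000, minus strand) was the smallest change that passed. Its call was lost with TMM scaling (0.23, adjusted p = 0.0713), RLE scaling (0.24, 0.0647), edgeR (0.22, 0.0834) and DESeq2 (0.23, 0.203), and without Aged replicate 1 (0.30, 0.0505), Aged replicate 3 (0.26, 0.0722) or Young replicate 1 (0.20, 0.162).

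Acaca encodes acetyl-CoA carboxylase 1, which makes malonyl-CoA. It was 52.2, 44.1 and 54.1 CPM in Aged and 32.6, 31.6 and 36.9 CPM in Young libraries, with no overlap, and rose 1.49-fold, at 50.1 ± 5.33 CPM in Aged and 33.7 ± 2.81 CPM in Young cells (SD, n = 3 per group; log2 fold change 0.56 ± 0.13 (SE), limma adjusted p = 0.00371; ENSMUSG00000020532, chromosome 11, 84129672 to 84401651, plus strand). A near-identical 3' end in the gene model Gm5182, which was not listed in these data, makes its value uncertain.

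Fasn, the synthase that builds palmitate, had the smallest p of the 35 genes. It was 222, 199 and 235 CPM in Aged and 133, 129.6 and 155 CPM in Young libraries, and the lowest Aged value stood well above the highest Young one. The means of 218 ± 18.4 CPM in Aged and 139 ± 13.8 CPM in Young cells (SD, n = 3 per group) were 1.57-fold apart (log2 fold change 0.65 ± 0.09 (SE), limma adjusted p = 1.79e-05; ENSMUSG00000025153, chromosome 11, 120805846 to 120824547, minus strand). Leaving out any 1 library kept the calls of Acaca and Fasn.

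The 2 other suppliers of the branch were at low levels. Acss2, which makes acetyl-CoA from acetate, was 4.61, 4.22 and 6.59 CPM in Aged and 11.3, 12.9 and 9.99 CPM in Young libraries, or 9 to 36 reads per library, with every Aged value below every Young one. It fell 2.22-fold, at 5.14 ± 1.27 CPM in Aged and 11.4 ± 1.47 CPM in Young cells (SD, n = 3 per group; log2 fold change -1.03 ± 0.27 (SE), limma adjusted p = 0.00688; ENSMUSG00000027605, chromosome 2, 155517948 to 155585724, plus strand), and was called by edgeR, by DESeq2 and without any 1 library. The antisense gene Acss2os overlaps its exons. Me1, the malic enzyme that supplies NADPH, had 2 to 24 reads per library, at 1.02 to 3.77 CPM in Aged and 2.69 to 8.61 CPM in Young libraries. Its groups overlapped and it did not pass (log2 fold change -0.82, -1.69 to 0.06). The parts of low depth and of the spread between libraries in this were not tested.

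Of the 7 elongases and desaturases 1 rose, where 16.2% of all tested genes were called higher. Fads2, the delta-6 desaturase of polyunsaturated fatty acids, was 83.5, 78.2 and 91.3 CPM in Aged and 63.9, 55.6 and 60.3 CPM in Young libraries. Its groups did not overlap, and it was 1.41-fold higher, at 84.3 ± 6.59 CPM in Aged and 60.0 ± 4.15 CPM in Young cells (SD, n = 3 per group; log2 fold change 0.48 ± 0.11 (SE), limma adjusted p = 0.00188; ENSMUSG00000024665, chromosome 19, 10062765 to 10101746, minus strand). Fads1, the delta-5 desaturase of the same pathway, was 19.0, 20.7 and 22.1 CPM in Aged and 21.7, 21.2 and 16.9 CPM in Young libraries and overlapped throughout (0.05, -0.33 to 0.43). The difference between the responses of Fads2 and Fads1 was not tested.

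Scd2, a stearoyl-CoA desaturase that makes monounsaturated fatty acids and the second most abundant member, was 480.4, 474 and 540.3 CPM in Aged and 543, 509 and 589 CPM in Young libraries. The groups overlapped and it did not pass (-0.13, -0.28 to 0.01, limma adjusted p = 0.159), although it was called lower with TMM scaling (-0.19, adjusted p = 0.0436). Scd1, its paralog, was 108, 75.1 and 88.0 CPM in Aged and 106, 94.4 and 98.0 CPM in Young libraries, with Aged replicate 2 the lowest of the 6 libraries (-0.15, -0.39 to 0.09).

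The 3 elongases did not pass in limma, edgeR or DESeq2, and 0 had an unadjusted limma p under 0.05. Elovl1, which extends saturated very long chains, was 83.5, 73.2 and 69.2 CPM in Aged and 60.9, 68.9 and 63.8 CPM in Young libraries, all Aged values being higher (0.22, -0.01 to 0.45), and exons of Cdc20, a cell cycle gene at 122, 113 and 97.4 CPM in Aged and 56.5, 47.4 and 78.8 CPM in Young libraries, lie on its other strand. Elovl5, which extends polyunsaturated chains, was 119.8, 120.4 and 105 CPM in Aged and 128, 131 and 126 CPM in Young libraries, all Aged values being lower (-0.16, -0.34 to 0.03). Elovl6, which extends palmitate to stearate, was 32.8, 26.5 and 31.5 CPM in Aged and 32.2, 29.1 and 35.7 CPM in Young libraries, with overlap (-0.09, -0.41 to 0.22) and with a 3' end near-identical to that of the gene model Gm11295. Elovl1 and Elovl5, acting on different chains, thus lay on opposite sides of 0, neither past the threshold.

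Summed over the 12 genes, the fatty acid branch was 1342, 1254 and 1390.2 CPM in Aged and 1235.5, 1216 and 1311 CPM in Young libraries, 1.06-fold and overlapping. The elongases and desaturases alone, a sum in which Scd2 is the largest term, were 914 ± 41.2 CPM in Aged and 951 ± 40.3 CPM in Young libraries (SD, n = 3 per group), also overlapping. The sterol sum separated the groups and the fatty acid sum did not, and the difference between the branches was not tested. All these sums were taken on CPM without TMM or RLE scaling, and how far they depend on the scaling was not tested.

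Groups that did not overlap were found in 13 of the 35 genes with Aged higher and in 4 with Aged lower, where 22.5% and 18.3% of all tested genes showed these patterns. The uncalled genes among them were Sqle, Msmo1, Sc5d and Elovl1 on the higher side and Mvk, Mvd and Elovl5 on the lower side. In the sterol branch the counts were 7 and 2 of 18, and in the fatty acid branch 5 and 2 of 12.

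**Figure D4:**
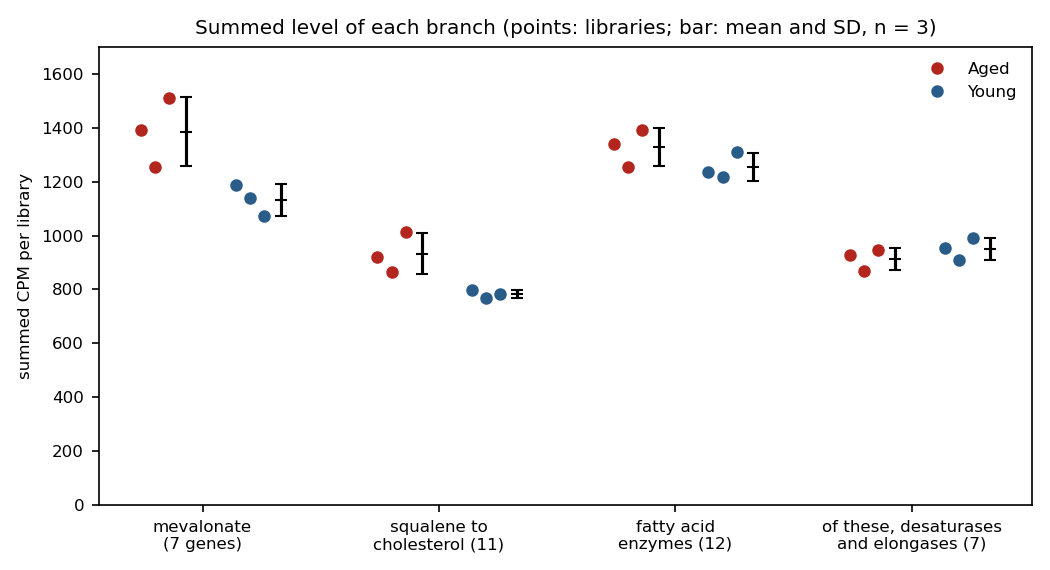
Summed CPM (axis from 0) of the mevalonate enzymes, the enzymes from squalene to cholesterol, the fatty acid enzymes, and the desaturases and elongases among these, with a point per library, Aged left of Young, and the mean and SD of each group (n = 3). Both sterol segments separate the groups, at 1386 ± 127 CPM in Aged and 1133 ± 58.5 CPM in Young libraries for mevalonate and 933 ± 75.9 CPM in Aged and 783 ± 16.4 CPM in Young libraries from squalene on, while the fatty acid sums overlap.

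Genes around these routes were read from related lists, whose counts are read against the 16.2% of all tested genes called higher and the 12.5% called lower. Of 14 tested genes of other isoprenoid and sterol steps, 3 rose (21.4%), 0 fell and the median was 0.22. Nus1, a subunit of the dolichol-making transferase, was 89.6, 67.5 and 93.7 CPM in Aged and 61.3, 62.8 and 56.5 CPM in Young libraries without overlap (0.45, limma adjusted p = 0.00817), and DESeq2 did not call it (adjusted p = 0.0527). In all 3 genes that rose every Aged value lay above every Young one. Ggps1 and Rabggtb, which make and attach the geranylgeranyl group, did not pass (-0.03 and 0.22).

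Of 15 tested genes of cholesterol efflux, storage and transport, 5 fell (33.3%) and 1 rose (6.67%), with a median log2 fold change of -0.23. Abcg1, a cholesterol exporter, was 15.9, 15.7 and 7.53 CPM in Aged and 25.7, 28.0 and 37.3 CPM in Young libraries, 2.32-fold lower and without overlap (log2 fold change -1.21 ± 0.24 (SE), limma adjusted p = 7.73e-04). Npc2, which passes cholesterol out of the lysosome, was 322, 366 and 328 CPM in Aged and 466, 465 and 469.6 CPM in Young libraries (-0.46, limma adjusted p = 2.58e-05), and Gramd1a, a sterol carrier at membrane contacts, was 25.1, 20.7 and 25.9 CPM in Aged and 33.9, 38.0 and 39.6 CPM in Young libraries (-0.62, 0.00432). Both separated the groups completely. Soat1, which esterifies cholesterol for storage, rose, at 102, 102 and 111 CPM in Aged and 85.6, 82.2 and 69.5 CPM in Young libraries (0.41, 0.00495; DESeq2 adjusted p = 0.0524). Gramd1b (-0.61, 0.0172) and Mylip (-0.73, 0.0467) also fell, with their calls kept in 4 and 2 of the 6 fits that left out 1 library, and DESeq2 called neither (adjusted p = 0.0663 and 0.117). Npc1 and Osbpl9 did not pass (-0.17 and -0.22), and DESeq2 called 3 genes of this list in all.

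Other regulators of the SREBP route, 9 tested genes, held 0 called by limma, edgeR or DESeq2 (adjusted p under 0.05), with a median of 0.09. In limma 1 of them, Insig2, the second INSIG gene, had an unadjusted p under 0.05, at 16.9, 12.7 and 16.5 CPM in Aged and 28.7, 17.2 and 19.2 CPM in Young libraries (-0.45, -0.90 to -0.01). Mbtps1, the protease of the first SREBP cleavage, was among the most abundant of them (0.09).

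Of 16 tested genes of other fatty acid synthesis and activation steps, 3 rose (18.8%), 1 fell (6.25%) and the median was 0.14, shares near the background for higher calls and below it for lower ones. Acsl5 was 144, 119.6 and 136 CPM in Aged and 107, 96.9 and 89.9 CPM in Young libraries (0.44, limma adjusted p = 0.00211), and Acsl3 was 51.2, 43.7 and 48.5 CPM in Aged and 36.5, 27.3 and 28.8 CPM in Young libraries (0.62, 0.00263). Both encode acyl-CoA synthetases, which activate fatty acids, and both separated the groups. Hsd17b12, the reductase of the elongation cycle, was 89.6, 86.6 and 93.2 CPM in Aged and 67.8, 53.8 and 73.8 CPM in Young libraries (0.47, 0.0044), while Tecr, the last enzyme of that cycle, was 100.4, 81.7 and 85.2 CPM in Aged and 137, 90.1 and 156 CPM in Young libraries with overlap (-0.48, 0.0166) and kept its call in 4 of the 6 fits that left out 1 library. Acsl4 and Hacd3 did not pass (0.15 and 0.14). Acacb, the second acetyl-CoA carboxylase gene, was under 1 CPM on average and was not tested, like 8 other genes of this list.

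The list of NADPH supply had 1 of 6 tested genes lower (16.7%), 0 higher and a median of -0.07. The gene that passed was Me2, a malic enzyme whose product sits in mitochondria (-0.31, limma adjusted p = 0.0462), called in 1 of the 6 fits that left out 1 library and not by DESeq2 (adjusted p = 0.101). Pgls and Pgd, of the pentose phosphate route, did not pass (-0.20 and 0.06).

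Fatty acid oxidation had 3 of 18 tested genes lower (16.7%, near the background) and 1 higher (5.56%, below it), with a median of -0.16. Hadh, a dehydrogenase of the β-oxidation cycle, was 51.2, 48.3 and 47.1 CPM in Aged and 66.5, 59.9 and 72.2 CPM in Young libraries (-0.43, limma adjusted p = 0.00817), and Etfb, an electron carrier subunit of the same process, was 244, 238 and 239 CPM in Aged and 184, 181 and 201 CPM in Young libraries (0.35, 0.00122). Neither overlapped between groups, and the 3' end of Etfb is shared with the gene model Gm45233, which was at most 0.435 CPM in any library. Acads (-0.37, 0.0262) and Eci2 (-0.44, 0.0264) fell too, each kept in 2 of the 6 fits that left out 1 library and neither called by DESeq2 (adjusted p = 0.0779 and 0.084). Acadl and Hadha did not pass (-0.15 and -0.05).

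Glycerolipid and phospholipid synthesis had 3 of 23 tested genes higher (13.04%) and 1 lower (4.35%), both below the background, with a median of 0.13. Lpin1, the phosphatidate phosphatase lipin 1, was 52.8, 47.9 and 62.1 CPM in Aged and 101, 80.0 and 90.3 CPM in Young libraries (-0.73, limma adjusted p = 1.27e-04), and Agpat5, an acyltransferase, was 74.3, 92.0 and 84.2 CPM in Aged and 52.2, 48.8 and 67.6 CPM in Young libraries (0.57, 0.00196). Both separated the groups. Lpcat1 (0.56, 0.00408) and Gpat4 (0.45, 0.00425; DESeq2 adjusted p = 0.0572) also rose, and Agpat3 and Lpcat3 did not pass (0.18 and 0.28). In none of these 7 lists was the difference from the 35 genes tested.

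**Figure D5:**
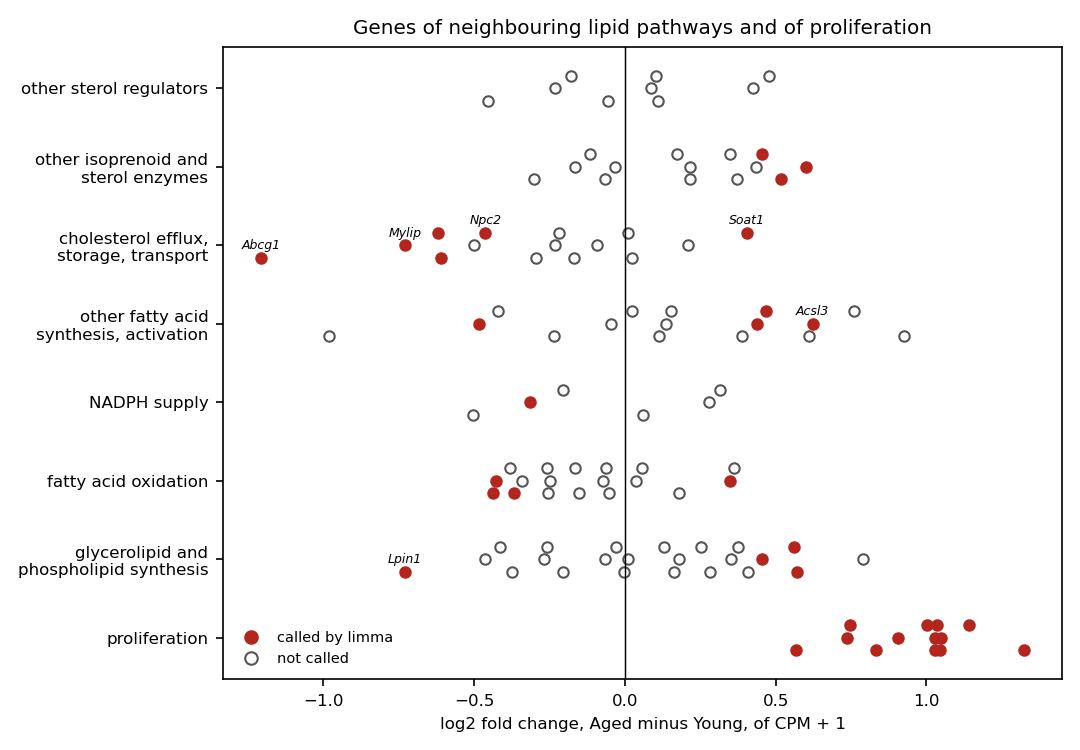
Log2 fold change, Aged minus Young on log2(CPM + 1), of every tested gene of the 7 related lists and of the proliferation list, with filled points for genes called by limma and open points for the others. Abcg1 lies farthest to the lower side among called genes at -1.21, and all 13 proliferation genes lie on the higher side at 0.57 to 1.32.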

How the data were processed

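RNA from 3 Aged and 3 Young samples was sequenced from the 3' end (QuantSeq), per the labels' protocols. The authors deposited 1 file of CPM values per library. The build was GRCm38 (mm10), per the submitters' processing notes, and the sources used here do not give aligner, counter, annotation or strand setting. All values (100%) were whole multiples of 1 read within 0.001 reads, so reads were recovered from the deposited CPM. The totals were 1952552 to 2785915 reads, so that 0.359 to 0.512 CPM stood for 1 read. A count of 0 allows 3 reads, or 1.08 to 1.54 CPM, which covers counting error only, since no molecular identifiers are described. ENSMUSG00000002633 was blank and left out. The value column of Aged replicate 2 is headed as replicate 3, and its sample was taken from the record that ties files to samples.

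The main test was limma 3.58.1 (R 4.3.3) with an intensity trend on log2(CPM + 1), Aged minus Young, as a two-sided test over the 10511 genes averaging 1 CPM or more, with Benjamini-Hochberg adjustment over all of them. This scale understates changes of low genes, and plain folds are ratios of mean CPM. Alternatives were TMM and RLE scaling, pseudocounts of 0.1 and 5, no filter or a mean of at least 5 CPM, edgeR 4.0.16 (quasi-likelihood test, calling 1443 genes higher and 1555 lower) and DESeq2 1.42.0 on recovered reads, a block for the replicate number, and leaving out each library. A chi-square test of reads over genes gave 1.72 to 2.9 per degree of freedom between replicates, a spread above counting noise.

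The genes and the related lists were chosen with earlier results of these data known. Values in each library are given for members that were called or had a mean of at least 20 CPM, and of each related list up to 4 called genes with the smallest p and 2 uncalled genes with the highest mean are named. Values of some genes that this rule takes are not reported here. Genes named outside the rule were chosen after their values were seen. Gene positions came from GENCODE M21 (GRCm38), 3' ends were compared over 300 bases (at least 100 bases at 97% identity), and promoters came from RefSeq.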

Additional observations from a re-analysis of the deposited data

How the results depend on the processing

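The counts of members called higher lay between 7 and 10 under all alternatives run. Those called lower were 1, except for 4 with TMM scaling, RLE scaling and edgeR, and 1 to 2 when 1 library was left out (2 without Aged replicate 1, Mvk among them). DESeq2 called 952 of all tested genes higher, against 1701 by limma. The fatty acid median became 0.0495 when genes averaging under 5 CPM were left out, Me1 being one of them. Estimates near 0 changed sign when 1 library was left out, with no call, over ranges of the log2 fold change of -0.062 to 0.013 (Fdps), -0.073 to 0.256 (Dhcr7), -0.043 to 0.171 (Srebf1), -0.046 to 0.082 (Srebf2) and -0.059 to 0.113 (Fads1). Fads1 was also -0.0018 with TMM scaling, -0.0037 with edgeR and -0.00071 with DESeq2. The cause was not tested. Of 524 single-gene values under the alternatives, 490 kept direction and call, 14 changed sign, 12 gained a call and 8 lost it. In the main test 25 of the 35 genes were not called, and some alternatives left the log2 fold change as it was. The count of 490 therefore says little on how firm the calls are. The labels state no pairing of Aged with Young libraries. Correlations of deviations from the group means were 0.0209, 0.00025 and 0.0028 between libraries of the same replicate number. Between libraries of different numbers they were -0.0259 to 0.0242. With 3 libraries per group these values cannot exclude a pairing. With the replicate block 9 members were called higher and 1 lower. Depth limits Me1, Dhcr7 and Acss2 most.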
